A study of Mus musculus with 48 samples.

Results

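Jejunum of Bmal1 knockout mice was compared with that of control mice at CT5, which is 5 h into the subjective day. CT, circadian time, counts the hours of the animals' own cycle when no light marks the day. The comparison takes every library whose column in the deposited count table is marked for CT5, 4 knockout and 4 control, out of 47 libraries with a column. The control genotype is written bmal1fl/fl, with floxed alleles of Bmal1 (gene symbol Arntl), and the knockout Bmal1iec-/-. All mice were kept in constant darkness, and the tissue is whole jejunum, the middle stretch of the small intestine. The knockout's name places the loss in intestinal epithelial cells, and other cells of the gut wall would keep the gene. The sources used here do not give the Cre driver, the age, sex or diet of the mice, or whether each library came from its own mouse. The p-values therefore measure the spread between these samples. The other 39 libraries cover CT1, CT9, CT13, CT17 and CT21 (4 per genotype and time, 3 for knockout CT9), and they serve as the reference for what differs at CT5.

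BMAL1 pairs with CLOCK or NPAS2 and binds E-box elements, where it drives the Per and Cry genes, the nuclear receptors Nr1d1 and Nr1d2, and output factors such as Dbp and Tef. PER and CRY proteins repress that pair, NR1D1 and NR1D2 (REV-ERBs) repress genes with ROR elements, among them Arntl, Npas2, Cry1 and Nfil3, and NFIL3 opposes DBP and TEF at D-box elements. In the intestine this oscillator is known for the timing of nutrient transport, lipid uptake, barrier function and immune traffic.

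The 8 libraries held 5.13 to 5.66 M read counts each, with 5.13 to 5.61 M for control and 5.31 to 5.66 M for knockout. Levels are given as CPM, the usual per-library scaling of counts, over the genes kept for testing and after scaling of the libraries, and differences as log2 fold changes of knockout over control with their standard error (SE). A count of 0 allows up to 3 counts, or 0.516 to 0.572 CPM in these libraries, a limit that covers counting error only. Relative log expression had an interquartile range of 0.284 to 0.382 in the 8 libraries, against 0.589 to 1.10 in 5 libraries of other times that depart most widely (control CT21 replicate 1, knockout CT1 replicates 1, 2 and 3, knockout CT21 replicate 4). Those 5 enter the shared estimate of spread. No 2 of the 8 libraries agreed within sampling noise (chi-square per degree of freedom 4.30 to 10.7 within a genotype). The 6 markers of small intestinal epithelium (Lct, Sis, Fabp1, Fabp2, Apoa4, Vil1) summed to 17550 to 20900 CPM, those of ileum to 0.737 to 1.55 CPM and those of stomach to 0.762 to 3.09 CPM. Gene symbols and coordinates are those of GENCODE on mm10.

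Arntl, the targeted gene (ENSMUSG00000055116.8, chr7:113207465-113314126, plus strand), stood at 29.99, 25.8, 31.0 and 34.9 CPM in control replicates 1 to 4 and at 34.6, 29.0, 30.7 and 31.2 CPM in knockout replicates 1 to 4. The groups overlapped, with a log2 fold change of 0.05 (SE 0.14, edgeR adjusted p = 0.998). Counts here are summed over the whole gene and do not show which exons were read, so the deletion was not measured. At CT5 the control level lay between its highest and lowest means of the day, 78.4 CPM at CT21 and 10.4 CPM at CT9, while the knockout means of the 6 times lay between 27.3 and 31.4 CPM. CT5 is thus a time at which the transcript total of the targeted gene does not tell the genotypes apart.

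Of 15646 genes tested, 131 (0.837%) passed an adjusted p of 0.05, 78 higher in the knockout (0.499%) and 53 lower (0.339%). At an unadjusted p under 0.05 there were 1160 (7.41%), and in 1212 genes (7.75%) the 4 knockout values did not overlap the 4 control values, lying above them in 695 (4.44%) and below them in 517 (3.3%). The median log2 fold change over all genes was 0.01, with 8116 values above 0 and 7530 below. Of the 131, 66 changed at least 2-fold, 39 upward and 27 downward. Over the whole table CT5 had the fewest calls of the 6 times, where CT1 had 3233 (20.7%), CT9 563 (3.6%), CT13 530 (3.39%), CT17 327 (2.09%) and CT21 224 (1.43%). The median SE of a gene was 0.208 at CT5 and 0.207 to 0.222 at the other times, and its median absolute log2 fold change was 0.14 at CT5 and 0.15 to 0.32 elsewhere. The difference between the counts was not tested. Without the 5 widely departing libraries the CT5 count rose to 282 (169 higher and 113 lower, 128 of the 131 among them) and CT1, left with 1 knockout library, gave 40 while CT9 gave 1029, CT13 gave 1154, CT17 gave 835 and CT21 gave 288. Single CT5 libraries mattered too: the count was 69 without control replicate 1, 72 without knockout replicate 2, 75 without knockout replicate 4, and 84 without knockout replicate 1 or control replicate 4.

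The clock list and the list of T cell genes held more calls than the other lists, 8 each. Over all genes tested, 0.837% passed. Of the 20 clock genes on the list, 4 rose (Nfil3, Cry1, Cry2 and Npas2), 4 fell (Nr1d1, Nr1d2, Dbp and Tef) and 12 did not pass. The list's median was 0.06, as rises and falls balanced. The number of calls stayed at 8 in each fit that left out 1 of the 8 libraries.

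Of the clock genes, the REV-ERB receptors had the largest falls. Nr1d1 (ENSMUSG00000020889.11, chr11:98767932-98775333, minus strand) had 131, 133, 157 and 147 CPM in the 4 control libraries and 17.5, 15.8, 20.2 and 19.8 CPM in the 4 knockout libraries. Every knockout library was thus far below every control library, and the means were 142 ± 12.5 and 18.3 ± 2.07 CPM (SD, n = 4; log2 fold change −2.95, SE 0.20, edgeR adjusted p = 2.5e-14). CT5 was the time of the highest control mean of Nr1d1, with CT9 close to it (134.9 ± 38.25 CPM, SD, n = 4). The genotypes were thus compared near its daily peak. The gene overlaps Thra on the other strand, and whether counting used strand is not given. Thra itself was at 123 CPM in control and 112 CPM in knockout (−0.13, SE 0.10, adjusted p = 0.935). Nr1d2, the paralog, stood at 63.8, 80.0, 80.7 and 94.4 CPM in control and at 23.2, 24.3, 18.7 and 19.2 CPM in knockout (−1.90, SE 0.23, edgeR adjusted p = 5.1e-07), with no overlap. Its control mean was still below the daily high of 148 CPM at CT9.

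Of the genes named above as repressed by REV-ERBs, Nfil3, Cry1 and Npas2 rose, and Arntl did not pass (0.05, SE 0.14, edgeR adjusted p = 0.998). Nfil3, a repressor of D-box genes, had 4.53, 9.11, 6.82 and 6.72 CPM in control and 34.4, 34.1, 24.7 and 30.9 CPM in knockout (2.18, SE 0.24, edgeR adjusted p = 4.5e-08). Cry1, a repressor of the BMAL1 pair, had 16.0, 12.04, 15.5 and 9.44 CPM in control and 46.7, 55.0, 54.5 and 47.2 CPM in knockout (1.94, SE 0.22, edgeR adjusted p = 1.4e-07). Neither gene had overlapping groups. Cry2, the paralog of Cry1, rose from 20.8 ± 4.10 to 49.95 ± 5.16 CPM (SD, n = 4; 1.26, SE 0.15, edgeR adjusted p = 2.4e-07). Npas2, which can stand in for CLOCK, stood at 37.4, 45.6, 39.1 and 41.6 CPM in control and at 106, 90.9, 93.2 and 92.6 CPM in knockout (1.23, SE 0.16, edgeR adjusted p = 1.2e-06). For Cry1, Cry2 and Npas2 the knockout mean at CT5 was above all 6 control means of the day, whereas for Nfil3 it stayed inside the control range of 4.79 to 35.4 CPM.

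The D-box factors Dbp and Tef fell. Dbp had 18.3, 16.7, 21.7 and 16.3 CPM in control and 4.46, 5.08, 5.09 and 5.72 CPM in knockout (−1.84, SE 0.22, edgeR adjusted p = 2.4e-07). The groups were well apart although the control was still far from its daily high of 77.2 CPM at CT9. Tef went from 80.8 ± 12.4 to 49.2 ± 4.22 CPM (SD, n = 4; −0.71, SE 0.13, edgeR adjusted p = 0.001), a call that ended with knockout replicates 2 and 4 alone (adjusted p = 0.0773). Their relative Hlf, at 7.20 ± 2.10 CPM in control and 7.32 ± 1.82 CPM in knockout (SD, n = 4), did not pass.

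The Per genes did not pass at CT5. Per2 had 35.8, 19.1, 26.2 and 19.1 CPM in control and 37.3, 42.8, 48.3 and 40.8 CPM in knockout, without overlap (0.76, SE 0.28, edgeR adjusted p = 0.323). Per3 had the opposite order, 16.6 ± 2.23 against 9.89 ± 2.64 CPM (SD, n = 4; −0.74, SE 0.21, edgeR adjusted p = 0.0894), and it passed without the 5 widely departing libraries and with DESeq2. Per1 was at 13.9 ± 5.86 and 10.2 ± 3.45 CPM (SD, n = 4). The remaining clock genes that did not pass, Clock, Rora, Bhlhe40, Bhlhe41, Ciart, Csnk1d and Csnk1e, had log2 fold changes of −0.41 to 0.52 and overlapping groups. Control means of Per2 and Per3 at CT5 were far below their highs at CT13 (226 and 80.4 CPM).

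**Figure D1:**
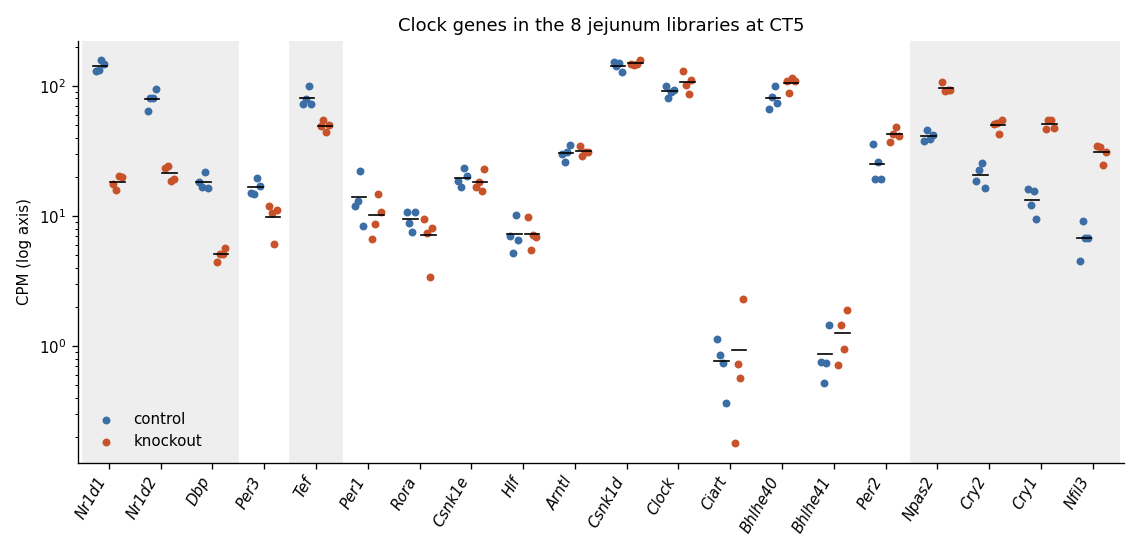
Level of each clock gene in the 8 CT5 libraries, in CPM on a log axis, with control in blue and knockout in orange, a black bar at each group mean and grey shading behind the 8 genes that passed. The genes are ordered by log2 fold change, from Nr1d1 at −2.95 to Nfil3 at 2.18, and Per2 and Per3 are separated but unshaded.

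Promoter sequences of RefSeq (GRCm38.p6, 250 bases before to 50 after each start) were available for 17 of the 20 clock genes and for 11002 of the genes tested. They were searched on both strands for the E-box CACGTG, for the core of the ROR element (TAGGTCA or TGGGTCA) and for the D-box TTANGTAA, none of which contains another. The E-box letters were in the windows of 5 of the 17 clock genes (29.4%), 9 of the 59 genes with a window that were higher (15.3%), 6 of the 43 that were lower (14%) and 11.3% of all genes tested with a window. The ROR core was in 2 of the 17 clock genes (11.8%), 7 of 59 (11.9%), 6 of 43 (14%) and 6.35%. Cry1 and Npas2, which rose, held no ROR core in their windows. The D-box was in 1 of the 17 clock genes (5.88%), 1 of 59 (1.69%), 0 of 43 and 1.88%. These shares were not tested, and a match describes letters, not a bound site. Among the clock genes that passed, Cry1 and Tef held the E-box and Nfil3 the ROR core, and Arntl, which did not pass, also held a ROR core. Their stretches are shown because one clock element sits in each, in capitals, in genes that moved up (Cry1, Nfil3), moved down (Tef) or did not pass (Arntl). Each is written 5′ to 3′ on the gene's own strand.
Cry1, chr10:85185067-85185156, minus strand, E-box 60 bases before the start: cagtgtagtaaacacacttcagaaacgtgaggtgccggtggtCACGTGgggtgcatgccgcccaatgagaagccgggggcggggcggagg
Tef, first start, chr15:81802504-81802593, plus strand, E-box 127 bases before the start: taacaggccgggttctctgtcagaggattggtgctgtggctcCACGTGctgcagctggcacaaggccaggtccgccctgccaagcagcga
Tef, second start, chr15:81811234-81811323, plus strand, E-box 138 bases before the start: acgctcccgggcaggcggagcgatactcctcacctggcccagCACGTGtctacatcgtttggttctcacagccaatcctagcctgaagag
Nfil3, chr13:52981040-52981111, minus strand, ROR core read on the opposite strand, 12 bases before the start: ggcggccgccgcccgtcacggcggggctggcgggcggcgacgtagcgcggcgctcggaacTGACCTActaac
Arntl, chr7:113207533-113207555, plus strand, ROR core at base 31 after one of its starts: gcagaaagTAGGTCAgggacgga
The E-box is thus present in the window of a gene that rose and in both windows shown of a gene that fell.

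The next question was which effects at CT5 differed from those at the other times. The difference between the CT5 effect and the mean effect at the other 5 times passed for 7 genes (0.0447%), 5 with a higher value at CT5 (0.032%) and 2 with a lower one (0.0128%), and the clock genes Nfil3, Nr1d1 and Dbp were among them. Nfil3 differed by 1.67 (SE 0.26, edgeR adjusted p = 7.2e-04), with an effect of 2.18 at CT5, 2.10 at CT9 and 1.296 at CT13 and effects of −0.45 to −0.15 at CT17, CT21 and CT1, which did not pass. Nr1d1 differed by −1.22 (SE 0.23, edgeR adjusted p = 0.0217) and Dbp by −1.24 (SE 0.25, edgeR adjusted p = 0.0301). CT5 did not have the largest fall of either gene. For Nr1d1 the effect was −3.565 at CT1, −2.95 at CT5, −2.665 at CT9 and −2.005 at CT13. At CT17 (−0.69) and CT21 (0.26) it did not pass. For Dbp the effect was −1.84 at CT5, −2.26 at CT9 and −1.42 at CT13. At CT17 (−0.55) and CT21 (0.01) it did not pass. Dbp was lower at CT5 and higher at CT1 (1.198, SE 0.35, edgeR adjusted p = 0.0133). Its CT1 means were low, 1.02 CPM in control and 2.44 CPM in knockout. Without the 5 widely departing libraries CT1 keeps 1 knockout library, so its effects on Dbp and Nr1d1 rest mostly on those libraries. Nfil3 passed also without the 5 widely departing libraries, where 4 genes passed in all, whereas Nr1d1 (adjusted p = 0.104) and Dbp (0.0933) did not.

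A further 2 genes fell in the knockout at other times and did not pass at CT5. Ces1d, a carboxylesterase, had 11.5, 21.8, 30.8 and 30.5 CPM in control at CT5 and 12.8, 13.97, 13.0 and 14.9 CPM in knockout (−0.79, SE 0.27, edgeR adjusted p = 0.248). Control replicate 1 lay below all 4 knockout libraries, and the other 3 control libraries lay above them. At CT17 the same gene stood at 171 ± 50.9 CPM in control and 11.4 ± 0.952 CPM in knockout (SD, n = 4; −3.90, SE 0.28, edgeR adjusted p = 5.0e-13). Its effect at CT9 was smaller than at CT5 and also did not pass (−0.35, SE 0.29, edgeR adjusted p = 0.786). Slc13a1, the apical sulfate transporter, was at 19.5 ± 6.75 and 12.3 ± 5.69 CPM at CT5 (SD, n = 4; −0.67, SE 0.31, edgeR adjusted p = 0.582) and at 152 ± 24.3 and 13.7 ± 3.32 CPM at CT13 (−3.47, SE 0.30, edgeR adjusted p = 6.0e-11). At CT1 the effect on Slc13a1 was near that at CT5 and passed (−0.95, SE 0.33, edgeR adjusted p = 0.0369). In both genes the knockout level varied little over the day (11.4 to 16.7 CPM and 8.25 to 16.7 CPM), and CT5 was among the times at which control was low. Neither difference passed without the 5 widely departing libraries (adjusted p = 0.105 and 0.12). Pla2g4c, which passed as well, is described with the genes carried by single libraries.

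**Figure D2:**
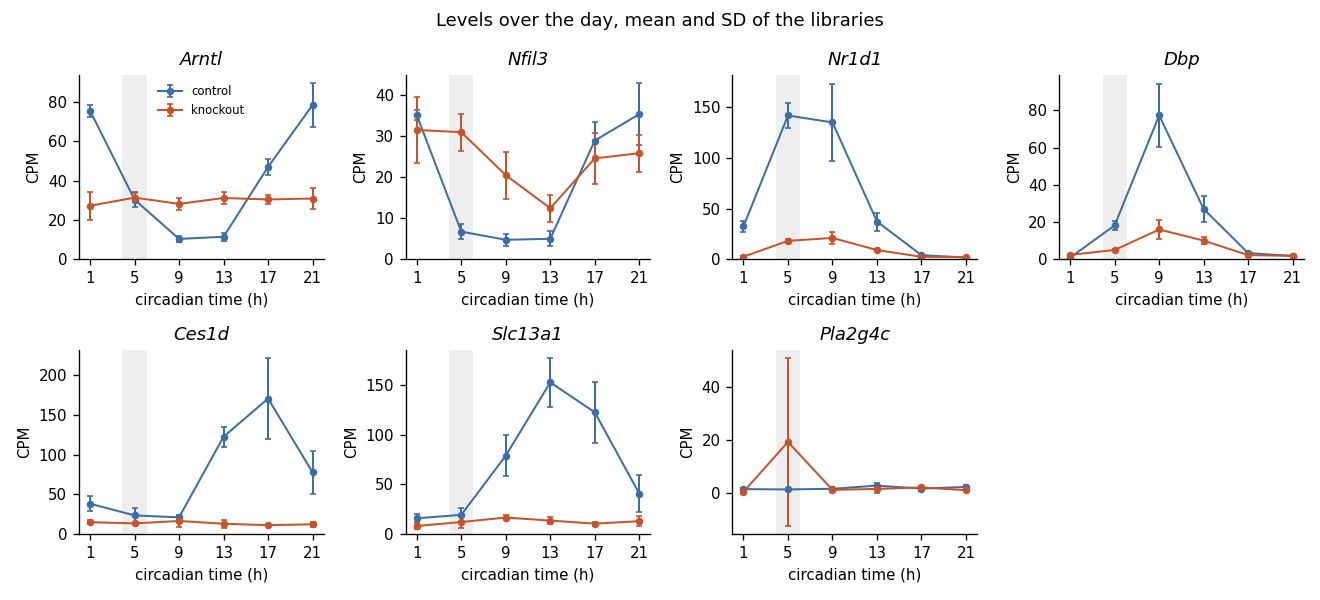
Mean CPM with SD at the 6 circadian times (hours on the horizontal axis) in control (blue) and knockout (orange) for Arntl and 6 of the 7 genes whose effect at CT5 differed from the mean effect at the other times, n = 4 per point and 3 for knockout CT9. CT5 is shaded: Nfil3 is low in control there, Nr1d1 has its highest control mean, close to that at CT9, and Ces1d and Slc13a1 are low in both genotypes.

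Most other changes at CT5 had the sign of the mean effect at the remaining times: 76 of the 78 higher genes and all 53 lower genes (98.5%, against 64.1% of all genes tested). Of the 78, 70 were called higher at 1 or more other times and 21 at all 5. Of the 53, 49 were called lower at 1 or more other times and 8 at all 5. Over all genes tested, 18.8% were called at 1 or more other times in the direction they had at CT5. All these counts include CT1, at which 20.7% of genes passed and most knockout libraries departed widely. A call in the opposite direction at some other time occurred for 0 of the 78 and 3 of the 53 (Dbp, Tef and 0610005C13Rik). The CT5 knockout level also lay outside the control day in most cases. In 70 of the 78 (89.7%) it was above all 6 control means, against 15.4% of all genes, and in 36 of the 53 (67.9%) below all of them, against 14.8%. These shares describe genes selected by their difference at CT5, and the control CT5 mean is one of the 6, so no test was made.

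**Figure D3:**
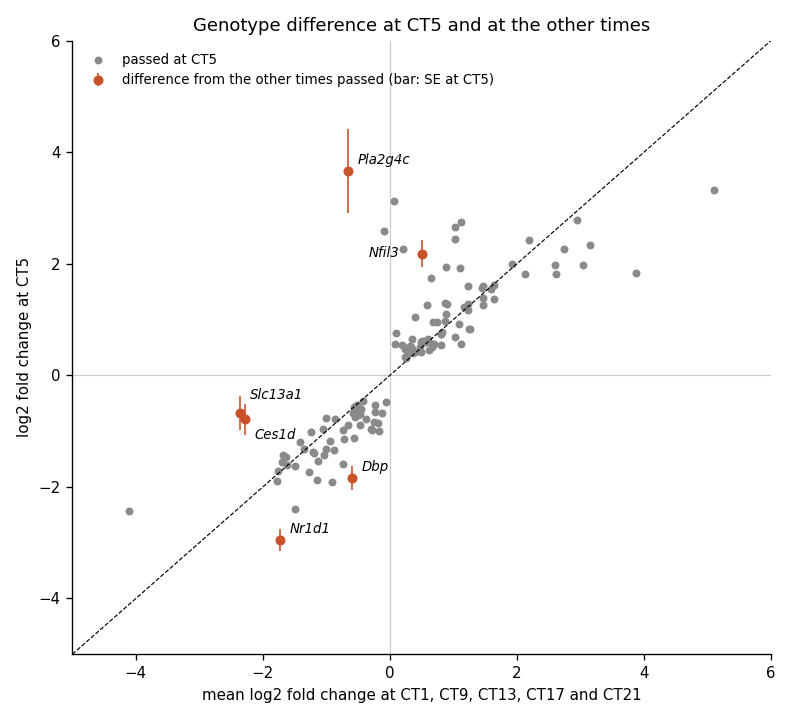
Log2 fold change at CT5 (vertical) against the mean log2 fold change at the other 5 times (horizontal) for genes that passed at CT5, in grey, and for 6 of the 7 genes whose difference passed, in orange with the SE at CT5. Most points lie in the 2 quadrants of equal sign and near the dashed line of equality, and Pla2g4c (3.67 against −0.66) lies farthest from it.

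Transport genes of the brush border changed in both directions. Slc34a2, the sodium-phosphate cotransporter NaPi-IIb, had 201, 493, 298 and 314 CPM in control and 1605, 941, 1262 and 769 CPM in knockout (1.81, SE 0.27, edgeR adjusted p = 4.2e-05). No library overlapped, and the knockout mean of 1144 CPM was above the highest control mean of the day, 516 CPM at CT1. In the fit of the 8 libraries alone this call ended (adjusted p = 0.0858). None of the other 10 measured genes of phosphate, sulfate and calcium transport passed, and the list's median was 0.13. The sodium-proton exchanger Slc9a3 (NHE3) rose from 296 ± 78.4 to 577 ± 94.2 CPM (SD, n = 4; 0.96, SE 0.24, edgeR adjusted p = 0.0346), a call that ended when any library other than control replicate 2 was left out. Of the water channels, Aqp8 rose from 0.908 ± 0.398 to 9.29 ± 3.004 CPM (SD, n = 4; 3.32, SE 0.61, edgeR adjusted p = 0.0013), a call that ended with limma-voom (adjusted p = 0.0984). Aqp1 fell from 380 ± 39.5 to 235 ± 64.3 CPM (SD, n = 4; −0.70, SE 0.15, edgeR adjusted p = 0.0065), a call that ended without knockout replicate 4 and in the fit of the 8 libraries. Aqp8 had 20 counts in the 4 control libraries together. It is also a colon marker, but the colon markers Car1 and Prdx6b stayed at or below 0.754 CPM in all 8 libraries. The other 12 measured genes of sodium, chloride, proton and water transport did not pass.

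Both sugar transporters that changed were fructose-type facilitators and neighbours on chromosome 4, 4802 bases apart. Slc2a5 (GLUT5) had 141, 124, 150 and 135 CPM in control and 54.2, 57.9, 69.4 and 70.1 CPM in knockout (−1.13, SE 0.17, edgeR adjusted p = 6.3e-05), with no overlap. Slc2a7 (GLUT7) fell from 75.4 ± 10.9 to 38.9 ± 6.87 CPM (SD, n = 4; −0.95, SE 0.17, edgeR adjusted p = 8.95e-04). G6pc, the catalytic subunit of glucose-6-phosphatase, rose from 38.6 ± 9.38 to 94.8 ± 10.8 CPM (SD, n = 4; 1.29, SE 0.25, edgeR adjusted p = 0.0019), a call that ended with knockout replicates 2 and 4 alone (adjusted p = 0.0516). All 3 levels stayed within the control day. The remaining 12 genes of sugar handling did not pass. Among them Sis, sucrase-isomaltase, had non-overlapping groups at 4000 ± 390 and 6231 ± 1154 CPM (SD, n = 4; 0.64, SE 0.29, edgeR adjusted p = 0.561), and it passed without the 5 widely departing libraries and in the fit of the 8 libraries alone.

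Lipid and vitamin A genes gave few calls. Abca1, the cholesterol exporter, was the only 1 of 25 genes of fat absorption and lipoproteins to pass (105 ± 36.1 to 38.9 ± 8.32 CPM, SD, n = 4; −1.42, SE 0.36, edgeR adjusted p = 0.0428). Its call ended without control replicate 1 or 4 or without any 1 of the knockout libraries. Vnn1, a pantetheinase and target of PPAR alpha, rose from 197 ± 26.3 to 289 ± 9.30 CPM (SD, n = 4; 0.56, SE 0.14, edgeR adjusted p = 0.0361), and this call ended whichever of the 8 libraries was left out. The other 19 genes of fatty acid oxidation and PPAR alpha targets did not pass. Of the 20, 17 had a value above 0 (median 0.21), and 7 did not overlap. Over all 15646 genes tested, 8116 had a value above 0 and 1212 did not overlap. Bco1, which cleaves beta-carotene to retinal, had 22.6, 6.36, 29.5 and 21.1 CPM in control and 4.46, 2.90, 0.943 and 6.29 CPM in knockout (−2.44, SE 0.55, edgeR adjusted p = 0.0168). The highest knockout library was just below the lowest control library, control replicate 2. CT5 was the control trough of Bco1, which reached 196 CPM at CT13, and the call ended with limma-voom, in the fit of the 8 libraries and without control replicate 1 or 3 or knockout replicate 2 or 3. The other 10 measured genes of carotene and retinoid handling did not pass.

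Drug and bile acid genes followed the same sparse pattern. Abcg2, the efflux pump BCRP, had 165, 211, 165 and 217 CPM in control and 321, 340, 332 and 282 CPM in knockout (0.75, SE 0.11, edgeR adjusted p = 2.0e-05), and it passed under all 18 alternative settings. Ces2b, a carboxylesterase with close paralogs, rose from 6.04 ± 3.01 to 15.7 ± 5.68 CPM (SD, n = 4; 1.36, SE 0.32, edgeR adjusted p = 0.0221), and its call ended without control replicate 1 or 3 or knockout replicate 3 or 4. Of 29 genes of xenobiotic metabolism these 2 passed, and 21 had a value above 0 (median 0.13), against 8116 of all 15646 tested. Nr1h4, the bile acid receptor FXR, rose from 36.2 ± 6.00 to 51.7 ± 4.93 CPM (SD, n = 4; 0.51, SE 0.12, edgeR adjusted p = 0.0254) and was the only call among 6 measured bile acid genes. That call ended when any library but control replicate 2 or knockout replicate 1 was left out. The exporter Abcc2 had 880 ± 163 and 502 ± 78.5 CPM (SD, n = 4) without overlap and did not pass (−0.81, SE 0.28, edgeR adjusted p = 0.259). It passed in the fit of the 8 libraries alone and without the 5 widely departing libraries. No member passed among 21 genes of sterol and fatty acid synthesis, 19 of protein digestion, 10 of iron uptake, 23 of the cell cycle, 15 of heat shock or 11 of the glucocorticoid response, by edgeR's quasi-likelihood test. The lowest edgeR adjusted p over these 6 lists was 0.0589. Of their 99 genes 9 had an unadjusted p under 0.05, against 7.41% of all genes tested. With DESeq2 1 passed and with limma-voom 0.

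Calls among barrier genes of the epithelium were all upward. Of the 4 measured Sprr genes, cornified-envelope proteins that gut epithelium induces on injury, 3 rose (median 1.90). Sprr2a2 had 17.5, 16.2, 20.6 and 29.8 CPM in control and 58.8, 77.8, 63.0 and 97.5 CPM in knockout (1.82, SE 0.31, edgeR adjusted p = 4.6e-04). Sprr2a1 (6.09 ± 1.92 to 23.9 ± 7.88 CPM, SD, n = 4; 1.97, SE 0.38, edgeR adjusted p = 0.002) overlaps Sprr2a2 on the same strand, and the Sprr2a genes are near copies, so their counts may have been shared. Cldn8, a claudin that tightens junctions, rose from 0.815 ± 0.091 to 4.20 ± 0.691 CPM on 18 control counts in all (SD, n = 4; 2.33, SE 0.44, edgeR adjusted p = 0.0017), and with knockout replicates 2 and 4 alone the call ended (adjusted p = 0.0513). The other 12 measured genes of tight junctions did not pass. Tmigd1, an adhesion protein of epithelial cells, had 29.2, 17.7, 10.3 and 25.4 CPM in control and 89.7, 101, 52.4 and 87.6 CPM in knockout (2.003, SE 0.30, edgeR adjusted p = 7.0e-05). Its knockout range lay above all control libraries, and it was called higher at all 5 other times, but it did not pass in the fit of the 8 libraries alone (adjusted p = 0.0573). Of the epithelial cell types, markers of tuft cells gave 1 call of 9 measured, the succinate receptor Sucnr1, with 0.943, 1.38, 1.47 and 1.27 CPM in control and 13.4, 6.71, 10.8 and 4.76 CPM in knockout (2.79, SE 0.36, edgeR adjusted p = 1.2e-06). The 8 other tuft cell markers, and all measured markers of goblet (9), Paneth (9), enteroendocrine (15) and stem cells (10), did not pass in edgeR's test. Of the 43 genes in these last 4 lists 4 had an unadjusted p under 0.05, against 7.41% of all genes tested. With DESeq2 0 passed and with limma-voom 0. The summed tuft cell markers had a range of 87.0 to 121 CPM over control libraries and of 88.8 to 181 CPM over knockout libraries.

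**Figure D4:**
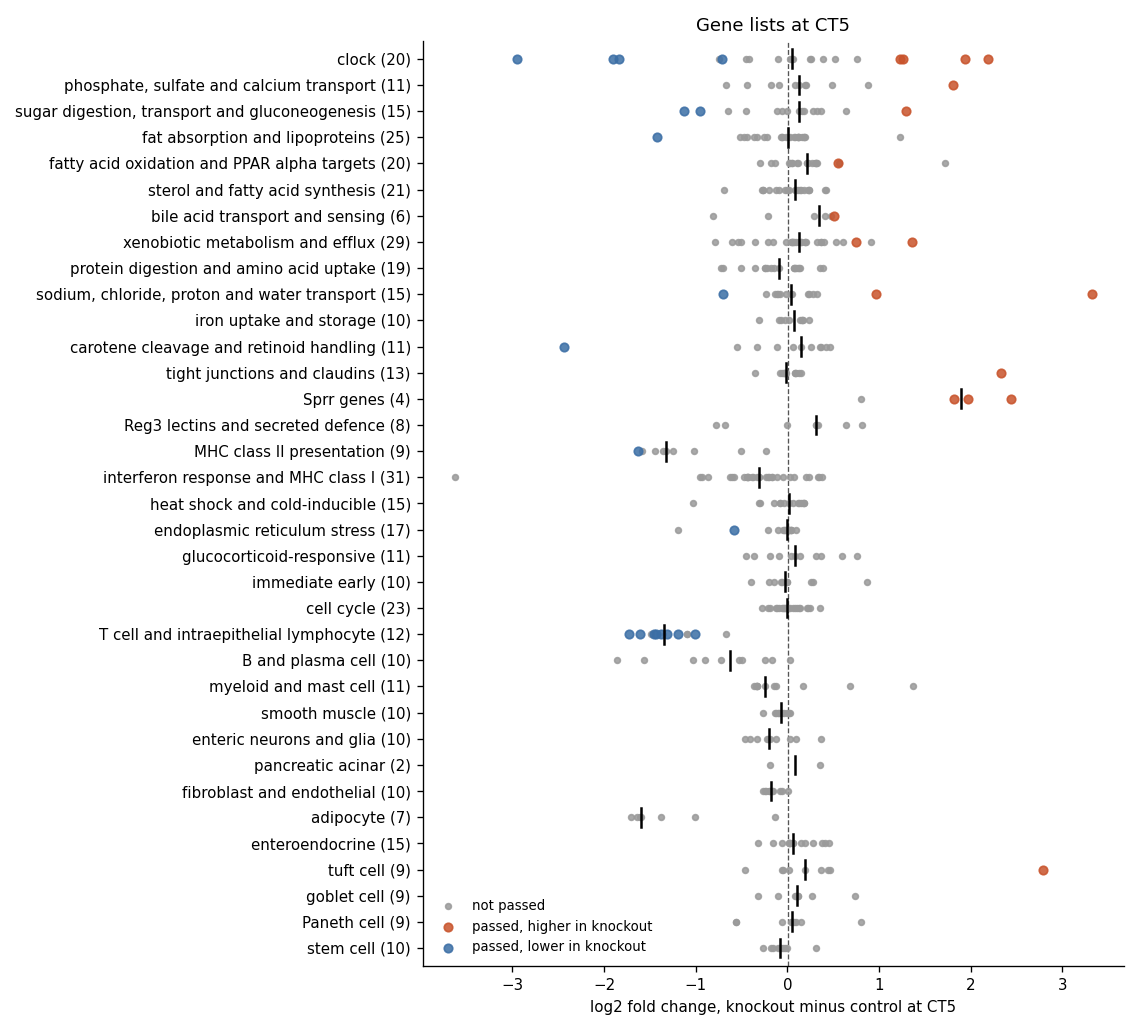
Log2 fold change at CT5 of each measured gene (points) in the 35 lists of functions and cell types, with the number measured in parentheses, calls in orange (higher) and blue (lower), the list median as a black bar and the median of all genes as a dashed line. Calls are spread over 15 lists. The clock list has calls on both sides, the Sprr list has a median of 1.90, and the T cell and MHC class II lists lie below 0.

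Lymphocyte transcripts were lower in the knockout. In their list 8 of 12 measured genes fell and none rose. Over all genes tested, 0.339% fell and 0.499% rose. All 12 values were below 0, against 7530 of all 15646 genes tested, and the median was −1.35. In bulk tissue fewer cells of a type and less RNA per cell cannot be told apart. Gzma, granzyme A, had 151, 58.8, 68.0 and 111 CPM in control and 37.6, 22.3, 37.9 and 43.2 CPM in knockout (−1.46, SE 0.34, edgeR adjusted p = 0.0252). The integrin Itgae, which holds these cells in the epithelium, had 40.9, 19.95, 21.9 and 28.5 CPM in control and 18.2, 10.3, 12.8 and 13.7 CPM in knockout (−1.01, SE 0.26, edgeR adjusted p = 0.039). In both genes control replicate 1 was highest and the groups did not overlap. Cd3d, Cd3e and Cd3g of the T cell receptor complex, Gzmb, Cd8a and the chemokine Ccl5 also fell, by 1.19 to 1.73 on the log2 scale. Summed over the 13 markers in the table, the level ranged from 176 to 429 CPM over control libraries and from 77.5 to 127 CPM over knockout libraries. The 8 calls depended on single libraries. There were 0 without control replicate 1 or 4 or knockout replicate 2 or 3, 1 without knockout replicate 1, 2 without knockout replicate 4, 6 without control replicate 3 and 9 without control replicate 2. Limma-voom gave 0, the fit with no filter 2, the fit of the 8 libraries alone 4, DESeq2 9 and the fit without the 5 widely departing libraries 8.

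Antigen presentation genes lay on the same side. Of 9 genes of MHC class II presentation 1 fell, all 9 values were below 0 (median −1.32) and 8 did not overlap. Over all 15646 genes tested, 7530 had a value below 0 and 1212 did not overlap. The number of the class II genes that fell was 6 with DESeq2 or without control replicate 2, and 4 without control replicate 3. It was 3 with a minimum count of 30 or without the 5 widely departing libraries. It was 0 with limma-voom, with no filter, in the fit of the 8 libraries, or without control replicate 1 or any 1 of the knockout libraries. H2-Ab1, a class II beta chain, had 905, 209, 240 and 329 CPM in control and 118, 137, 131 and 156 CPM in knockout (−1.63, SE 0.38, edgeR adjusted p = 0.0237), and the call ended without control replicate 1 or without any 1 of the knockout libraries. Control replicate 1 carried the highest value, and the other 3 control libraries still lay above the knockout. The invariant chain Cd74 had 980 ± 667 and 360 ± 21.9 CPM (SD, n = 4; −1.45, SE 0.39, edgeR adjusted p = 0.0722), and it passed under 5 alternatives. H2-Q7, a class I gene with close copies, fell from 37.8 ± 22.2 to 14.4 ± 2.43 CPM (SD, n = 4; −1.39, SE 0.32, edgeR adjusted p = 0.0169), a call that ended without control replicate 1 or knockout replicate 1 or 2. H2-Q7 is not on the list of 31 genes of the interferon response and MHC class I. None of the 31 passed in edgeR's test, 24 values were below 0 and the median was −0.31. At an unadjusted p under 0.05 there were 10, against 7.41% of all genes tested, and DESeq2 called 1 and limma-voom 0. Ubd, which interferon induces, had the lowest value there (−3.63, SE 0.97, edgeR adjusted p = 0.0646) with overlapping groups.

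Markers of other cells were checked beside these results. Summed myeloid markers ran from 319 to 358 CPM over control libraries and from 263 to 308 CPM over knockout libraries, without overlap and with 0 of 11 genes passing. The 7 adipocyte markers were all below 0 (median −1.60, adjusted p of 0.908 or more), and their sum ran from 137 to 218 CPM over control libraries and from 66.8 to 124 CPM over knockout libraries. Sums of smooth muscle, neurons and glia, fibroblasts and endothelium, and B and plasma cells overlapped between the genotypes, and no member passed in edgeR's test. Of the 58 genes in all 6 of these lists 2 had an unadjusted p under 0.05, against 7.41% of all genes tested. With DESeq2 0 passed and with limma-voom 0. Their part in the T cell and MHC class II results was not tested.

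Several rises rested on 2 of the 4 knockout libraries. Knockout replicates 2 and 4 carry sample numbers in their titles that are set apart from those of the other 6 CT5 libraries, and what the numbers stand for is not given. Pla2g4c, a cytosolic phospholipase A2, had 1.51, 2.24, 1.47 and 0.726 CPM in control and 0.892, 9.44, 0.754 and 66.1 CPM in knockout (3.67, SE 0.76, edgeR adjusted p = 0.006). Gsdmc4, of the gasdermin C family of pore-forming proteins, had 17.2, 39.4, 25.97 and 26.7 CPM in control and 27.5, 102, 19.2 and 380 CPM in knockout (2.27, SE 0.57, edgeR adjusted p = 0.0399). In both genes knockout replicates 1 and 3 lay within or near the control range, and replicates 2 and 4 far above it. The neighbours of Gsdmc4 on chromosome 15, Gsdmc3 and Gsdmcl2, were also highest in knockout replicate 4, at 83.4 and 33.2 CPM, and next highest in knockout replicate 2, at 17.6 and 9.80 CPM. In the 39 libraries of other times the highest value was 4.44 CPM for Pla2g4c and 46.9 CPM for Gsdmc4, so these 2 knockout libraries exceeded every one of them. With knockout replicates 1 and 3 alone the sign turned, to −0.84 for Pla2g4c, −0.23 for Gsdmc4, −0.30 for Gsdmc3 and −0.46 for Gsdmcl2. These genes were chosen after their values were seen, for high levels in knockout replicates 2 and 4, so that fit had to lose the rise. They are not described as changes of the genotype.

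Other genes were graded in a similar way but with all 4 knockout libraries high. Cd55, which shields cells from complement, had 32.8, 48.3, 52.9 and 38.3 CPM in control and 116, 172, 75.3 and 288 CPM in knockout (1.92, SE 0.26, edgeR adjusted p = 8.6e-06). Its neighbours on chromosome 1, Gm15674 and Gm15675, also rose. Gm15674 had a log2 fold change of 2.75 (SE 0.58, edgeR adjusted p = 0.0074) and Gm15675 one of 2.44 (SE 0.39, edgeR adjusted p = 1.4e-04). They overlap each other on opposite strands. The Gm15674 call ended with limma-voom (adjusted p = 0.0952), without control replicate 1 (0.0516) and without knockout replicate 4 (0.063). Sprr2a3 had 17.5, 23.2, 14.9 and 24.1 CPM in control and 46.7, 92.5, 48.5 and 245 CPM in knockout (2.43, SE 0.45, edgeR adjusted p = 0.0017). The lowest knockout value exceeded the highest control value in Cd55 and Sprr2a3, and knockout replicate 4 was highest in both. Without it the Sprr2a3 call ended (adjusted p = 0.0515), and in the fit of the 8 libraries alone none of these 4 genes passed.

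**Figure D5:**
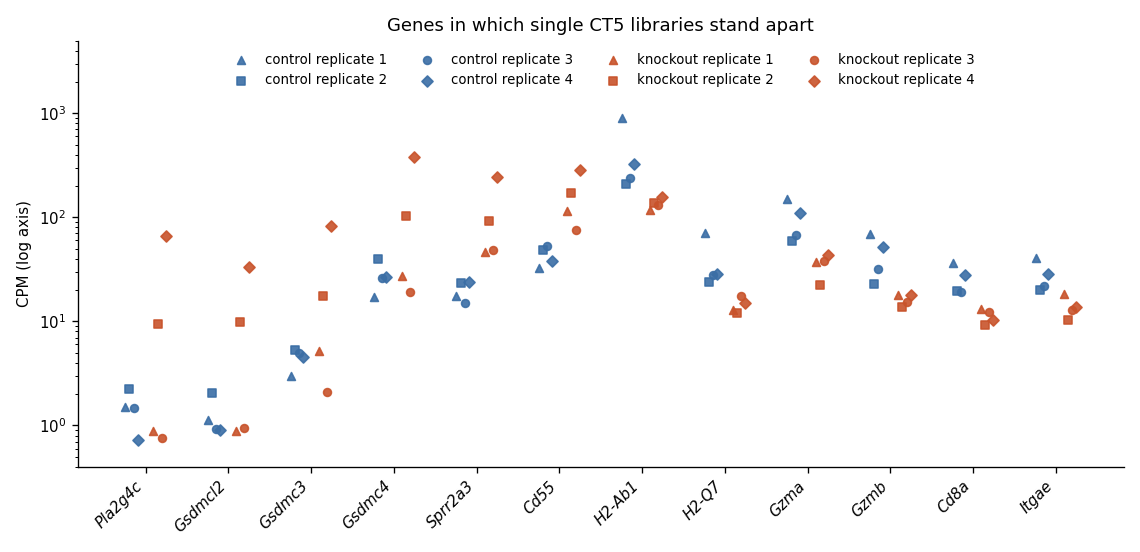
CPM on a log axis in each CT5 library for genes in which single libraries stand apart, with control in blue, knockout in orange and a marker shape per replicate. Knockout replicates 2 (square) and 4 (diamond) are high in Pla2g4c and the 3 gasdermin C genes, and control replicate 1 (triangle) is highest in H2-Ab1, H2-Q7 and the 4 lymphocyte genes.

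Beyond the lists, the largest falls by fold change included Tns4, tensin 4, a focal adhesion protein. It had 63.9, 58.3, 89.0 and 98.2 CPM in control and 14.4, 12.5, 18.9 and 12.6 CPM in knockout (−2.40, SE 0.24, edgeR adjusted p = 1.1e-08), and its knockout mean was below all control means of the day. Acsm5, a mitochondrial medium-chain acyl-CoA synthetase, fell from 19.5 ± 2.59 to 6.73 ± 1.74 CPM (SD, n = 4; −1.53, SE 0.24, edgeR adjusted p = 7.5e-05). Defa29, an alpha-defensin with near-identical relatives, fell from 176 ± 56.2 to 53.5 ± 21.1 CPM (SD, n = 4; −1.71, SE 0.43, edgeR adjusted p = 0.0397). That call ended when any library but control replicate 2 or knockout replicate 1 was left out. Lrrc75b fell by 1.88 on the log2 scale. Lingo4 rose (2.66, SE 0.43, edgeR adjusted p = 1.4e-04) and passed under all 18 alternative settings. Among the rises, the amino acid transporter Slc38a8 (2.27, SE 0.47, edgeR adjusted p = 0.0046) and the organic anion transporter Slc22a13 (1.75, SE 0.43, 0.0341) rested on 15 and 20 control counts in all, and the call of Slc22a13 ended when any library but control replicate 2 or knockout replicate 1 was left out. Herpud1, a component of the degradation of misfolded proteins in the endoplasmic reticulum, fell from 107 ± 10.97 to 71.7 ± 4.48 CPM (SD, n = 4; −0.58, SE 0.14, edgeR adjusted p = 0.022), a call that ended without knockout replicate 1, 2 or 4 or control replicate 3 or 4, and the other 16 measured genes of endoplasmic reticulum stress did not pass. Of the 78 and 53 genes, 6 and 2 were predicted genes or pseudogenes, and 1 lower gene was an immunoglobulin or T cell receptor segment.

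Of the 131 genes, 27 passed under all 18 alternative settings, among them 7 of the 8 clock genes (not Tef). Some of the others are given here, a choice made after the values were seen. Myo5b, a motor of apical vesicle traffic, had 312, 353, 361 and 363 CPM in control and 496, 492, 564 and 506 CPM in knockout (0.57, SE 0.10, edgeR adjusted p = 5.0e-04). Suclg2, a subunit of succinyl-CoA ligase, rose from 131 ± 10.47 to 186 ± 8.77 CPM (SD, n = 4; 0.51, SE 0.09, edgeR adjusted p = 5.7e-04). Both had knockout libraries wholly above control libraries. Tmem252 had 44.5, 71.5, 65.8 and 71.0 CPM in control and 147, 154, 140 and 176 CPM in knockout (1.28, SE 0.14, edgeR adjusted p = 4.5e-08). Fbxl21, an F-box protein that acts on cryptochromes, rose from 2.703 ± 0.657 to 7.16 ± 0.688 CPM (SD, n = 4; 1.39, SE 0.25, edgeR adjusted p = 8.8e-04). Dab1, an adaptor of reelin signalling, rose from 104 ± 14.3 to 186 ± 6.69 CPM (SD, n = 4; 0.83, SE 0.15, edgeR adjusted p = 0.0013). Falls were seen in Epha1, an ephrin receptor, from 131 ± 12.8 to 77.8 ± 5.36 CPM (SD, n = 4; −0.75, SE 0.11, edgeR adjusted p = 4.3e-05), and in the annexin Anxa7, from 104 ± 5.45 to 70.3 ± 2.18 CPM (−0.57, SE 0.10, edgeR adjusted p = 3.4e-04). Epha1 overlaps Zyx on the opposite strand, and Zyx also fell (−0.79, SE 0.16, edgeR adjusted p = 0.0036), so without the strand setting their counts may not be separate.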

How the data were processed

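The authors deposited a table of raw read counts per gene, 1 column per library. Per the labels' protocols, RNA was extracted with a NucleoSpin RNA kit and libraries were made with a TruSeq Stranded mRNA kit. Tools named in GEO's record, per the submitters' processing notes, are STAR 2.7.5c, featureCounts 1.4.6, Trimmomatic 0.39, DESeq2 1.22.0, SAMtools 1.3.1 and FastQC 0.11.5, and the build is mm10. For strand setting, annotation release and multi-mapping reads the entry is: not given in the sources used here. Counts of overlapping genes and near copies are therefore uncertain. Of 55401 gene IDs, 55141 matched GENCODE M21. One knockout CT9 sample without a column was not analysed here.

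Counts of all 47 libraries were fitted in R 4.3.3 with edgeR 4.0.16 (filterByExpr on 12 groups, minimum count 10; TMM scaling; robust quasi-likelihood, 35 residual degrees of freedom, 15646 genes), with contrasts of the CT5 groups and of the CT5 effect minus the mean effect at the other times. Adjusted p-values are Benjamini-Hochberg values over all genes, with a threshold of 0.05. Genotype and time in the titles set the groups. Replicates were numbered in accession order, which pairs nothing. The 39 lists hold 502 genes, 467 of them measured. Genes named were drawn from Arntl, the clock list and the 15 largest non-overlapping changes per direction. Those changes had 10 or more counts in each library of the higher group. Each list added up to 5 calls and the most abundant gene that did not pass. The difference from other times added up to 6 per direction. Not every gene that met these rules is printed, and others were chosen after their values were seen. The results of 1 gene are not reported here, though it counts among all genes tested. The members and lists were chosen with earlier results of these data known. The fit was tested on simulated counts with known changes. Alternatives were upper quartile scaling, DESeq2 size factors, no filter, a minimum count of 30, limma-voom (limma 3.58.1), DESeq2 1.42.0, only the 8 libraries, and fits without named libraries.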

Additional observations from a re-analysis of the deposited data

Results flagged for a closer look

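The effect at CT5 differed from the mean effect at the other 5 times in 7 genes by the test of the difference itself, among them Nfil3 (1.67), Ces1d (1.497), Slc13a1 (1.69), Pla2g4c (4.33), Nr1d1 (−1.22) and Dbp (−1.24), in log2 units. Without the 5 widely departing libraries Ces1d, Slc13a1, Nr1d1 and Dbp did not pass. Pla2g4c rested on knockout replicates 2 and 4.

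In 8 of 264 groups of 4 libraries, 1 library stood apart from the other 3 by a gap large relative to the group's range. In independent groups chance gives about 1 in 20, a larger share than was found. Many genes checked were chosen by their values, and all share the same 8 libraries. That rate therefore cannot show whether these flags exceed chance. Npas2 was at 106 CPM in knockout replicate 1 against 90.9 to 93.2 in the others. H2-Q7 was at 70.9 CPM in control replicate 1 against 23.7 to 28.9. The same control library stood apart for Calr, an endoplasmic reticulum chaperone (561 against 483 to 489 CPM), and for Sdha, a subunit of succinate dehydrogenase (620 against 677 to 683 CPM). Knockout replicate 4 stood apart for Sprr2a1 (35.6 against 18.9 to 21.6 CPM), Pla2g4c (66.1 against 0.754 to 9.44 CPM) and Aagab (69.0 against 75.8 to 76.9 CPM). Ifngr1, the interferon gamma receptor, was at 237 CPM in knockout replicate 1 against 221 to 222 in the others.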

How the results depend on the processing

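No paired analysis was possible because the labels give no replicate numbers. The count of 131 at CT5 rose to 282 without the 5 widely departing libraries, and was 45 with knockout replicates 1 and 3 alone and 75 with replicates 2 and 4 alone. It ranged from 69 to 129 when single CT5 libraries were left out. The other settings gave 92 to 185. The 7 differences from the other times became 4 without a filter, 4 with limma-voom, 4 without the 5 widely departing libraries, 2 with knockout replicates 1 and 3 alone and 13 with replicates 2 and 4 alone, and ranged from 3 to 5 when single libraries were left out. Signs turned with knockout replicates 1 and 3 alone for Pla2g4c (−0.84, and −0.19 for its difference from other times), Gsdmc3 (−0.30), Gsdmcl2 (−0.46) and Gsdmc4 (−0.23), and for no other gene checked whose value had passed. Of the genes named, calls ended for Bco1, Cd3d, H2-Ab1, Ccl5, Gzma, Gzmb, H2-Q7, Aqp8, Itgae, Cd3e, Pla2g4c, Gsdmc3, Gsdmcl2, Gsdmc4, Gm15674, Slc13a2os, Cd8a and Cd3g with limma-voom, and for Defa29, H2-Ab1, Ccl5, Gzma, Gzmb, Abca1, H2-Q7, Vnn1, Nr1h4, Slc9a3, Itgae, Gsdmc3, Gsdmc4, Slc13a2os, Cd8a and Cd3g with no filter on low counts. They ended in the fit of the 8 libraries for Bco1, Defa29, H2-Ab1, Ccl5, Gzma, Gzmb, Abca1, H2-Q7, Sprr2a3, Tmigd1, Cd55, Slc34a2, Slc22a13, Nr1h4, Ces2b, Aqp1, Slc9a3, Itgae, Gsdmc3, Gsdmc4, Gm15674, Gm15675, Slc13a2, Slc13a2os, Socs3, Slc23a1 and Slc17a4. With knockout replicates 1 and 3 alone they ended for Bco1, Lrrc75b, Cd3d, Defa29, H2-Ab1, Ccl5, Gzma, Gzmb, Abca1, H2-Q7, Sprr2a3, Sprr2a1, Slc22a13, Vnn1, Nr1h4, Ces2b, Aqp1, Slc9a3, Herpud1, Itgae, Cd3e, Gm15674, Gm15675, Slc13a2, Slc13a2os, Cd8a, Cd3g, Socs3, Slc23a1, Osbpl3 and Mbl2. With replicates 2 and 4 alone they ended for Tef, Bco1, Cd3d, Defa29, H2-Ab1, Ccl5, Gzma, Gzmb, Abca1, H2-Q7, Cldn8, Slc38a8, Slc22a13, G6pc, Vnn1, Nr1h4, Ces2b, Slc9a3, Herpud1, Itgae, Cd3e, Slc13a2os, Cd8a, Cd3g, Slc17a4 and Zyx. Fits with only 2 of the 4 knockout libraries have fewer samples, and the cause of these shifts was not tested. At about 5 M counts per library, changes of genes with a few counts per library could be missed.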

Other observations

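The following genes outside the lists were chosen after their values were seen. Slc13a2, the apical dicarboxylate transporter, had 309, 91.8, 187 and 125 CPM in control and 40.1, 60.4, 93.2 and 41.9 CPM in knockout (−1.60, SE 0.34, edgeR adjusted p = 0.0098), with knockout replicate 3 just above the lowest control library, and its call ended without control replicate 1 or knockout replicate 1 or 4. Its antisense neighbour Slc13a2os, which overlaps it, also fell (−1.92, SE 0.46, edgeR adjusted p = 0.0297; lost without control replicate 1 or 3 or knockout replicate 1, 2 or 4), and without the strand setting the counts of these 2 genes may not be separate. Slc23a1, a vitamin C transporter, fell from 98.4 ± 5.81 to 57.2 ± 16.7 CPM (SD, n = 4; −0.78, SE 0.18, edgeR adjusted p = 0.0169), a call lost without control replicate 1 or knockout replicate 2 or 4. The organic anion and phosphate transporter Slc17a4 rose from 169 ± 40.5 to 321 ± 61.7 CPM (SD, n = 4; 0.92, SE 0.19, edgeR adjusted p = 0.0036), lost without control replicate 1 or knockout replicate 1. Socs3, a feedback inhibitor of cytokine signalling, had 54.5, 102, 41.5 and 46.1 CPM in control and 35.7, 19.2, 23.4 and 18.3 CPM in knockout (−1.33, SE 0.27, edgeR adjusted p = 0.004), without overlap, and its call was lost without control replicate 2. Mbl2, a mannose-binding lectin of innate defence, rose from 23.6 ± 4.16 to 69.4 ± 19.1 CPM (SD, n = 4; 1.55, SE 0.33, edgeR adjusted p = 0.0096), lost without control replicate 1 or 3. Osbpl3, an oxysterol-binding protein, fell from 76.6 ± 12.2 to 33.9 ± 4.86 CPM (SD, n = 4; −1.17, SE 0.20, edgeR adjusted p = 5.1e-04).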
